A study of Mus musculus with 115 samples.

Results

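The libraries described here are prostate RNA-seq libraries of transgenic mice that were selected on the summed level of 2 seminal vesicle transcripts, Svs4 and Svs5. In the series 73 libraries had a level of Chga, a granule protein of neuroendocrine cells, under 1 TPM, and the 42 others had 1 TPM or more (TPM is the share of a gene in the transcripts of its library, scaled to a constant total). Among these 73, the 31 libraries with Svs4 + Svs5 of at least 1000 TPM are called Svs-rich and the 23 with a sum under 50 TPM are called Svs-poor, which gives 54 members. The other 19, between the thresholds, are called intermediate and were not used by the choice. Just inside the upper threshold the sum was 1299.99 TPM and just outside it 897.22 TPM, and at the lower threshold it was 48.72 TPM inside and 51.43 TPM outside. The highest Chga level among the members was 0.77 TPM, and the lowest level above the threshold was 1.15 TPM.

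All mice were male (TRAMP x WSB/EiJ) F2 animals that carried the TRAMP transgene, which expresses the SV40 T antigen under a minimal probasin promoter in prostate epithelium. By that description Svs-rich and Svs-poor mice share transgene, cross and source, and they differ in no treatment. Each F2 animal has its own mixture of C57BL/6 and WSB/EiJ alleles. Mice were killed at the endpoint age of the study or earlier on humane grounds, and the age of each mouse was not used here. According to the study's methods, prostates were resected with care not to rupture the seminal vesicles, and RNA of small prostates came from the ventral prostate, but the labels do not say which libraries these were. TPM keeps no sequencing depth, so the counting error behind each value is unknown.

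The seminal vesicles are paired androgen-dependent glands that derive from the Wolffian duct, whereas the prostate derives from the urogenital sinus. In rodents their epithelium secretes a few very abundant proteins, several of them encoded side by side in a gene cluster, which mix with prostate secretions at ejaculation. The prostate transglutaminase Tgm4 crosslinks some of these proteins, foremost Svs2, into the copulatory plug, while others such as Pate4 (also called SVS7) and Spinkl bind to sperm.

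The genes that chose the members lie in that cluster on chromosome 2 of GRCm38, with Svs2 at chr2:164235929-164238466, Svs3b at chr2:164254363-164256640, Svs4 at chr2:164275952-164278459, Svs3a at chr2:164289268-164291500, Svs6 at chr2:164316751-164318453 and Svs5 at chr2:164332740-164334396. Upstream sequences of 4 of them are shown because the levels of these neighbours part from each other in the values that follow. Each run is the 250 bases before the RefSeq start (GRCm38.p6), written 5′ to 3′ on the strand of the gene, at chr2:164332515-164332764 (plus strand) for Svs5, chr2:164316501-164316750 (plus) for Svs6, chr2:164278308-164278557 (minus) for Svs4 and chr2:164238342-164238591 (minus) for Svs2. The gene spans given above are those of GENCODE M21, with other starts than RefSeq, so the runs of Svs5, Svs4 and Svs2 lie partly within these spans. Capitals mark the bases that differ between Svs5 and Svs6, aligned with an offset of 4 bases. In Svs4 and Svs2 capitals mark TATAAA as read on the strand shown.
Svs5: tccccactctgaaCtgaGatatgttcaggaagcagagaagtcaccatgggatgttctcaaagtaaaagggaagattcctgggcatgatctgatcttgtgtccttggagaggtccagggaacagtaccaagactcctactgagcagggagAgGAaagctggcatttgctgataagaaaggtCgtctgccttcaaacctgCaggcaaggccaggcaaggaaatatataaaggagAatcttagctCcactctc
Svs6: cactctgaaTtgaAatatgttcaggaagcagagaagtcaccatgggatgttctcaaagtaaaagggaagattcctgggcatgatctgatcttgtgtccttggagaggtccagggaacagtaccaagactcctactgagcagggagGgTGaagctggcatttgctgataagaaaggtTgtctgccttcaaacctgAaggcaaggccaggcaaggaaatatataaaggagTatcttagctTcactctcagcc
Svs4: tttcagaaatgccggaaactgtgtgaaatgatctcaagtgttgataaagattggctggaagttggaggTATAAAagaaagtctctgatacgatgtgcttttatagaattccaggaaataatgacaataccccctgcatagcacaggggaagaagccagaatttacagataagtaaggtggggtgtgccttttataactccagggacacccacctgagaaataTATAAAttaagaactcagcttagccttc
Svs2: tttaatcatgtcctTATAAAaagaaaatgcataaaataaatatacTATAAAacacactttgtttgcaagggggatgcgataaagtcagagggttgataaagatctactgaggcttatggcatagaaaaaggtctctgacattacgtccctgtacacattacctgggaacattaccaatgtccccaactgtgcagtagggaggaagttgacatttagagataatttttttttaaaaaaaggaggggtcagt
The upstream runs of Svs5 and Svs6 differed at 9 of 246 aligned bases, an identity of 96.3%. On either strand TATAAA was found once in Svs5 and in Svs6, 4 times in Svs4 and 2 times in Svs2, and it is present in 12.4% of the 32851 RefSeq windows of the same length. The letters TGTTCT or their complement AGAACA were found in the Svs5 and Svs6 runs and in 16.1% of all windows. These are matches of letters and not tested sites. The transcripts themselves are easier to tell apart, since the longest stretch that Svs5 and Svs6 share was 33 bases, shorter than a trimmed read. Svs3a and Svs3b share a stretch of 370 bases, so their reads cannot be fully separated and their values are uncertain.

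The levels that chose the members spanned a wide range, given here as a description. Svs4 was between 64.26 and 90519.7 TPM in the Svs-rich libraries, with a median of 1097.56 TPM. In the Svs-poor libraries Svs4 ran from 0.83 to 27.08 TPM, with a median of 5.47 TPM. Svs5 ran from 581.67 to 63655.7 TPM (median 3537.28) on the rich side and from 0.64 to 30.36 TPM (median 8.51) on the poor side. In the richest library, of mouse W4434, the 2 transcripts made up 13.9% of all TPM.

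**Figure D1:**
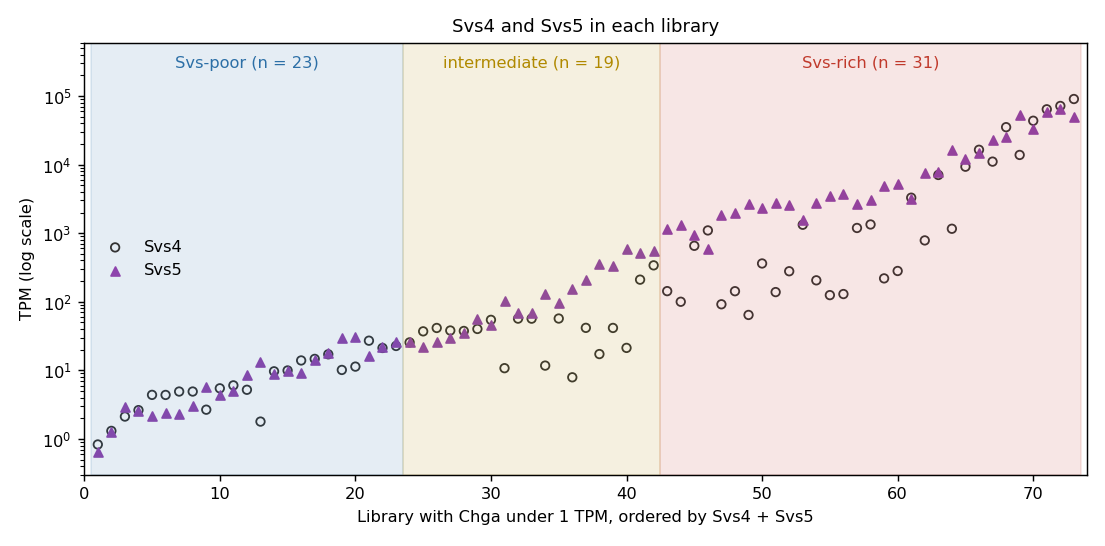
Svs4 (circles) and Svs5 (triangles) in TPM on a log axis in each of the 73 libraries with Chga under 1 TPM, ordered by their sum, with the 3 ranges of the sum shaded. Svs4 lies close to Svs5 in most poor libraries, where the ratio of Svs5 to Svs4 has a median of 0.96 and reaches 7.33 in W4509. The ratio is over 5 in 1 of 23 poor, 6 of 19 intermediate and 15 of 31 rich libraries.

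The label of these libraries as differentiated prostate with seminal vesicle transcripts was checked against defining genes of both organs, and it held for only a part of them. The prostate secretory gene Tgm4 was present in all 31 Svs-rich libraries, at 124.27 to 16468.9 TPM. On the poor side 2 libraries went against the label: Tgm4 was 0.64 TPM in mouse W1154 and 3.77 TPM in mouse W1118. These 2 had a highest correlation of 0.80 with any other member. Mice W7822 and W78022, both Svs-rich, have nearly alike labels, and their libraries correlated at r = 0.949. Each correlated more highly with another member, at up to 0.961 for W7822 and 0.958 for W78022. Results are therefore also given without W1154 and W1118 and without W78022. The labels give each library a mouse name of its own, and p-values treat the libraries as separate mice, which could not be settled for W7822 and W78022.

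Among genes that define the seminal vesicle, Svs-rich libraries did not behave alike. Svs1, an amine oxidase-like secretory protein, Svs3a, a plug protein, and Sva, the seminal vesicle autoantigen, were all at 10 TPM or more in 13 of the 31 libraries. They were all under 2 TPM in 16, and 2 libraries lay between. The second set thus had a high sum of Svs4 and Svs5 while these defining genes were at or near 0, and Sva was listed at 0 in 3 libraries.

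That split followed the ratio of Svs5 to Svs4, which ran from 0.53 to 41.4 across the Svs-rich libraries. No library had a ratio between 3.79 and 6.55, so a value of 5, chosen after the values were seen, is used to describe them, with no test. In the 16 libraries under this value, Svs6 was between 13.07 and 17068.7 TPM with a median of 1789.98 TPM. In the 15 libraries above it, Svs6 was between 0.41 and 32.45 TPM with a median of 3.06 TPM, although Svs5, whose upstream run is nearly alike, was never under 1157.01 TPM there. Svs4, itself a part of the ratio, had a median of 10193 TPM (654.89 to 90519.7) in the 16 libraries. Its median was 142.98 TPM (64.26 to 1160.9) in the 15.

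Other secretory genes parted in the same way as Svs6. Svs1 had a median of 300.0 TPM (0.38 to 4492.08) in the libraries with a low ratio and of 0.12 TPM (0.01 to 1.97) in those with a high ratio. Svs3a had medians of 246.37 and 0.29 TPM, and Sva of 183.73 and 0.06 TPM. Svs1 and Sva overlapped between the sets through mice W4165 and W4427, which had ratios of 2.26 and 2.24. Svs3a and Svs6 overlapped through W4165 alone. Spinkl, a sperm-binding Kazal-type inhibitor, did not overlap, with 30.31 to 7580.27 TPM at low ratios and 0.13 to 21.95 TPM at high ratios. Ceacam10, a secreted member of the carcinoembryonic antigen family, had medians of 279.445 and 8.17 TPM. It overlapped between the sets, with 8.31 TPM in W4427 at a low ratio and 57.38 TPM in W4070 at a high ratio.

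Svs2 and Pate4 did not part in this way. Svs2, the main substrate of the plug, ran from 48.86 to 15366.4 TPM (median 3494.91) at low ratios and from 1112.08 to 14418.3 TPM (median 3024.77) at high ratios. Pate4, on chromosome 9 at chr9:35607093-35611941, had medians of 2718.05 and 1724.99 TPM. Both genes were thus abundant in each set, and the ratio of Svs2 to Pate4 stayed between 0.63 and 2.25 in all 31 libraries, while the ratio of Svs6 to Svs4 ran from 0.0020 to 0.35. Their levels did not simply follow Svs5, since the ratio of Svs2 to Svs5 ran from 0.084 to 1.72 and the Svs5 medians were 13504.4 TPM at low and 2713.08 TPM at high ratios.

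**Figure D2:**
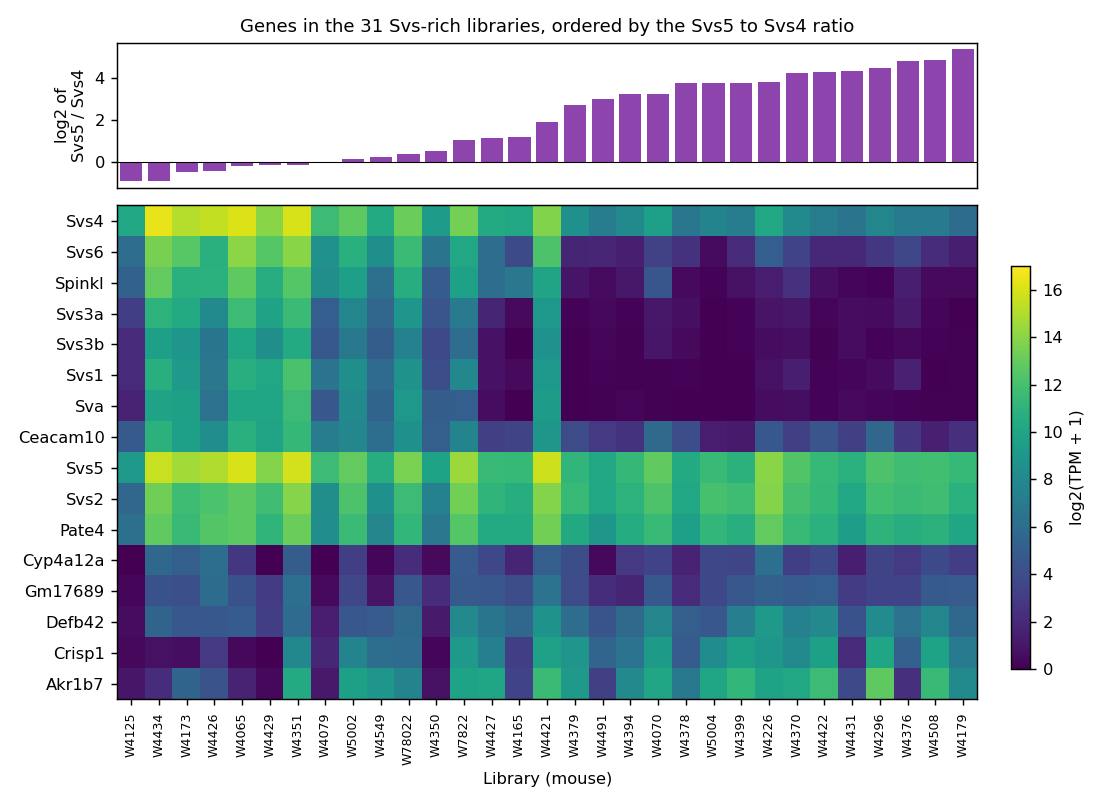
Levels of 16 genes as log2(TPM + 1) (color) in the 31 Svs-rich libraries, ordered by the log2 ratio of Svs5 to Svs4 (bars above). Svs6, Spinkl, Svs3a, Svs3b, Svs1 and Sva are dark in the 15 libraries with ratios of 6.55 or more, while Svs5, Svs2 and Pate4 stay bright in nearly all libraries.

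Of the vas deferens and epididymis list, Akr1b7 and Crisp1 had higher medians at high ratios. Akr1b7, an aldose reductase-like protein of the vas deferens, had a median of 911.72 TPM (3.99 to 6925.85) in libraries with a high ratio and 31.65 TPM (0.27 to 3066.72) in those with a low ratio. Crisp1, a sperm-coating protein of the epididymis, had medians of 301.61 and 6.98 TPM. Both overlapped between the sets, and Akr1b7 reached 7651.76 TPM in a Svs-poor library. The summed level of the 8 genes of that list was 0.3 to 7934.74 TPM in Svs-rich and 0.3 to 9452.97 TPM in Svs-poor libraries. Of the 8, 2 passed the filter, and Lcn5, Lcn8, Adam7, Cst8, Ros1 and Rnase10 stayed under a mean of 1 TPM.

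To ask which genes vary along this ratio, limma was fitted within the 31 Svs-rich libraries to log2(TPM + 1), with the log2 sum of Svs4 and Svs5 and the log2 ratio of Svs5 to Svs4 as terms. This fit was added after the values were seen, and Svs4 and Svs5, which chose the libraries, make up both terms. A gene that follows Svs4 alone therefore takes a negative slope on the ratio, and one that follows Svs5 alone takes a positive slope. The counts, slopes and adjusted p of this fit, in both directions, are thus a description of these libraries. Sum and ratio were themselves related, with a Pearson r of -0.57 across the 31 libraries. Of 12947 autosomal genes, 17 rose with the ratio at an adjusted p under 0.05 (0.131%) and 7 fell (0.0541%). All 7 that fell are in the seminal vesicle list, namely Spinkl, Svs6, Svs3a, Svs1, Sva, Svs3b and Ceacam10, and their slopes are a description, from -1.33 for Spinkl to -0.59 for Ceacam10 in log2 units per doubling of the ratio.

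The 17 genes that rose included Svs2 and Pate4 of the list and, outside it, Crisp1, Defb42, Defb43, Plau, Pfkfb3 and Elf5. Crisp1 had the largest slope of the 17, 1.28 ± 0.28 (SE, limma adjusted p = 0.0379, n = 31), while Akr1b7, with a slope of 1.29 ± 0.34, was not called (adjusted p = 0.158). Defb42 and Defb43, beta-defensins on chromosome 14, had slopes of 0.98 and 0.80. Plau, the urokinase-type plasminogen activator, had a slope of 0.59, and Pfkfb3, which makes an activator of glycolysis, one of 0.51. Elf5, an ETS transcription factor known from secretory epithelia, had a slope of 0.39. That call for Crisp1 was lost under 3 alternatives, with an adjusted p of 0.0704 after median-of-ratios scaling, 0.0781 after rescaling without the most abundant genes and 0.185 with no filter on low values. With the ratio as the only term, 39 genes rose, of which 2 were among the 17, and Svs2 and Pate4 then had slopes of 0.12 and 0.02. The count of 17 rested in part on single libraries: it was 8 without W4125, 9 without W4226, 11 without W4079 or W4508 and 39 without W4376. The count of 7 was between 5 and 7 in the same runs.

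With the sum of Svs4 and Svs5, 138 genes rose (1.07%) and 51 fell (0.394%) in this fit. Median-of-ratios scaling gave 693 and 321, and TPM rescaled without Svs4, Svs5 and the top 20 genes gave 398 and 383, so the split between directions depends on the scaling. The genes that fell were also sensitive to single libraries, with 595 without W4165 and 9 without W4125. Foxa1, a transcription factor of prostate luminal cells, fell by 0.27 log2 units per doubling of the sum (SE 0.05, limma adjusted p = 0.000807). The rule for named genes did not reach it. Of the 10 luminal regulators tested, 1 fell with the sum and 0 rose, and their median slope was -0.06, against -0.02 over all genes. The luminal keratins Krt8 and Krt18 had slopes of -0.02 and -0.07 and were not called.

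The comparison of the 31 Svs-rich with the 23 Svs-poor libraries asked which other autosomal genes go with the 2 transcripts. Svs2 and Pate4 differed most, Cyp4a12a, Gm17689, Defb42 and Cdo1 led the genes outside the seminal vesicle list, and no gene was lower by 2-fold. The limma fit to log2(TPM + 1), with Svs4, Svs5 and Chga left out, called 30 of 13127 genes higher (0.229%) and 0 lower (0%) at an adjusted p under 0.05 and a 2-fold difference. At an unadjusted p under 0.05, 231 genes were higher and 1177 lower, with a median difference of -0.11 over all genes, a shift that became 0.02 when TPM was rescaled without the most abundant genes. Without W1154 and W1118 the fit called 24 genes higher, of which 23 were among the 30, and without W78022 it called 28, of which 26 were among the 30.

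**Figure D3:**
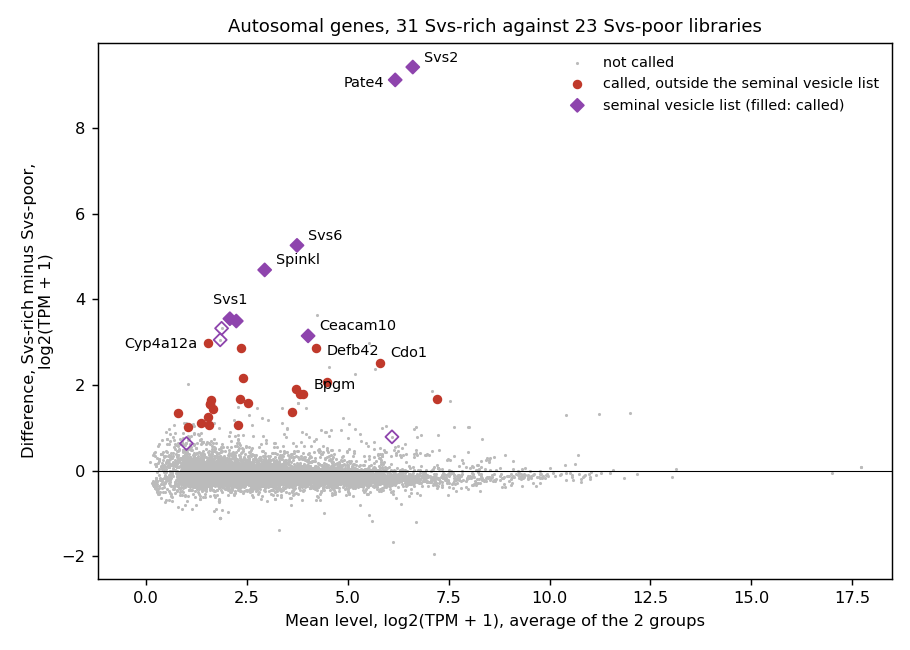
Difference in log2(TPM + 1) between Svs-rich and Svs-poor libraries (vertical) against the mean level (horizontal) for 13127 autosomal genes. The called genes all lie above 1, with Svs2 and Pate4 far above the others, and no called gene lies under 0.

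Of the 30 called genes, 7 belong to the seminal vesicle list, whose members go with the genes that made the choice, so their values are given without a test. Svs2 was between 0.2 and 26.38 TPM (median 2.43) in the Svs-poor libraries and differed by 9.42 log2 units from the Svs-rich libraries. Pate4 was between 0.14 and 20.34 TPM (median 1.82) there and differed by 9.12 log2 units. For these 2 genes the groups did not overlap, and they were the only 2 of the genes tested for which this was so (0.0152%). Svs6 differed by 5.26 and Spinkl by 4.69 log2 units, with 20 and 18 of the 31 Svs-rich libraries above every Svs-poor library. Over the 11 members tested the median difference was 3.49, against -0.11 over all genes, and the lowest was 0.63 for Ltf, the iron-binding lactoferrin. Serpine2, a protease inhibitor of the seminal vesicle, differed by 0.79 and was not called.

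Outside that list, 23 genes were called. Cyp4a12a, a fatty acid hydroxylase under androgen control in the kidney, was between 0 and 72.98 TPM (median 7.85) in the Svs-rich libraries and between 0 and 0.23 TPM (median 0) in the Svs-poor libraries. In 28 of the 31 Svs-rich libraries Cyp4a12a was above every Svs-poor library, and the mean difference was 2.99 ± 0.37 log2 units (SE). Cyp4a12a is 1 of 9 of the 30 called genes whose mean in the Svs-poor libraries was under 1 TPM, so that they passed the filter through the Svs-rich libraries. With no filter the limma adjusted p of Cyp4a12a was 1.34e-06, and of these 9 genes 7 were called, without Svs1 and Svs3a. Gm17689, on chromosome 9, was between 0.21 and 88.78 TPM (median 17) on the rich side and at most 4.24 TPM (median 1.02) on the poor side. It differed by 2.87 ± 0.35 (limma adjusted p = 2.07e-07), with 24 of 31 libraries above the poor range.

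The enzymes Cdo1, Bpgm and Pfkfb3 were among the 23. Cdo1, cysteine dioxygenase, which opens the route from cysteine to taurine, had a median of 113.18 TPM (25.39 to 526.36) in Svs-rich and 20.11 TPM (1.78 to 264.5) in Svs-poor libraries. The ranges overlapped, and the difference was 2.52 ± 0.37 (adjusted p = 1.84e-05). Bpgm, bisphosphoglycerate mutase, had medians of 26.79 TPM (4.58 to 174.94) and 6.67 TPM (4.19 to 11.1), so 25 of 31 libraries lay above the poor range. Its difference was 1.79 ± 0.27 (adjusted p = 1.84e-05). Pfkfb3 had medians of 23.86 and 4.2 TPM and differed by 1.90 ± 0.36 (adjusted p = 0.0021), a call that was lost when Svs-poor was limited to the 10 libraries under 10 TPM (adjusted p = 0.0648).

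**Figure D4:**
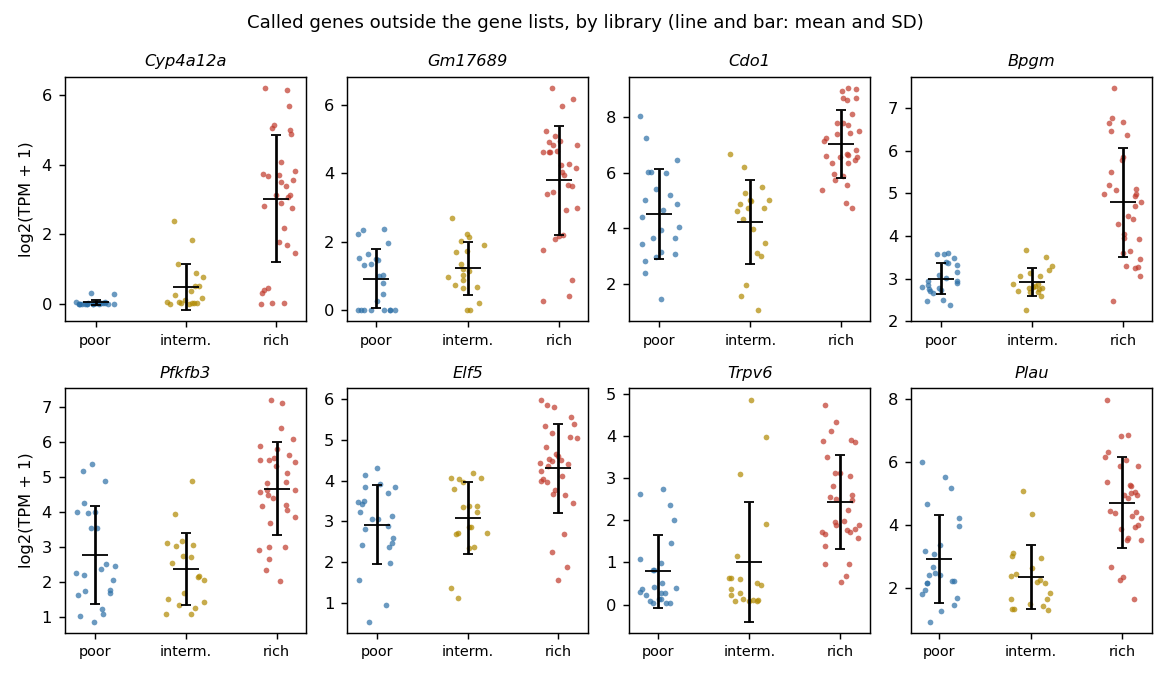
Levels of 8 called genes outside the gene lists as log2(TPM + 1), by library, in Svs-poor (n = 23), intermediate (n = 19) and Svs-rich (n = 31) libraries, with the mean and SD. The Svs-rich libraries have the highest mean in every panel, and the intermediate libraries lie near the Svs-poor libraries.

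Among the other named genes, Defb42, D730048I06Rik and Wfdc15b differed most. Defb42 differed by 2.87 ± 0.63 (adjusted p = 0.0161), D730048I06Rik by 2.17 ± 0.49 (adjusted p = 0.0184) and Wfdc15b, a whey acidic protein family member next to the Svs cluster at chr2:164214454-164221660, by 2.07 ± 0.41 (adjusted p = 0.00485). Plau had medians of 27.79 and 4.31 TPM and differed by 1.79 ± 0.38 (adjusted p = 0.0092). Trpv6, an epithelial calcium channel, had medians of 3.72 and 0.32 TPM and differed by 1.65 ± 0.27 (adjusted p = 0.00019). Fam3b, a secreted cytokine-like protein, differed by 1.67 ± 0.31 (adjusted p = 0.00172), and Npy, a secreted peptide, by 1.43 ± 0.29 (adjusted p = 0.00603).

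Elf5, which the rule for named genes did not reach and which was chosen after its values were seen, had a median of 20.7 TPM (1.97 to 62.17) against 7.36 TPM (0.46 to 18.88) and differed by 1.37 ± 0.28 (adjusted p = 0.00589). Cwh43, which remodels lipid anchors of proteins, differed by 1.59 ± 0.33 (adjusted p = 0.00769). With Svs-poor under 10 TPM, Elf5 (adjusted p = 0.351), Defb42 (0.122) and Plau (0.0747) were not called. Calls near the threshold depended on single libraries. Cd52, a small surface glycoprotein of leukocytes and of the male genital tract, had medians of 269.39 and 49.97 TPM, differed by 1.66 ± 0.40 (adjusted p = 0.0398), and was called in 24 of 54 runs that left out 1 library each. Odam, a secreted protein first known from tooth enamel organs, differed by 1.55 ± 0.37 (adjusted p = 0.0418) and was called in 22 of 54. Without W1154 and W1118, the adjusted p was 0.12 for Cd52, 0.108 for Odam and 0.0587 for Defb42 and for D730048I06Rik.

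Idi1, an enzyme of isoprenoid synthesis, was the only gene lower at an adjusted p under 0.05, and its difference of -0.66 ± 0.14 (adjusted p = 0.013) was smaller than 2-fold. It had a median of 4.59 TPM (1.56 to 9.3) in Svs-rich and 7.53 TPM (4.05 to 26.03) in Svs-poor libraries, and it too was chosen after its values were seen.

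In the other 17 gene lists, 0 members were called by limma in either direction, against 0.229% of all genes called higher. Prostate secretory genes had a median difference of 1.18 over 8 members, and 2 of them had an unadjusted p under 0.05. Tgm4 had medians of 6606.79 TPM in Svs-rich and 9134.28 TPM in Svs-poor libraries, although its mean log2 difference was 1.32 ± 0.85 (adjusted p = 0.507), and the beta-defensin Defb50 differed by 1.29 ± 0.66 (adjusted p = 0.464). Without W1154 and W1118 the median of the list was 0.43, with differences of 0.45 for Tgm4 and 0.41 for Defb50. With Svs-poor under 10 TPM Defb50 was called, at 3.77 (adjusted p = 0.0088). Spink1, a trypsin inhibitor, had the largest difference of that list, 3.63 ± 1.06 (adjusted p = 0.231), with levels up to 5116.56 TPM on the poor side. Luminal regulators had a median difference of 0.03 over 10 members, and the keratins Krt8 and Krt18 differed by -0.17 ± 0.16 and -0.20 ± 0.14. Wolffian duct regulators had a median of 0.17 over 9 members, with Gata3 at 0.38 ± 0.27 and Hoxa10 at 0.02 ± 0.19, while Pax2, Lhx1 and Hoxd11 did not pass the filter.

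**Figure D5:**
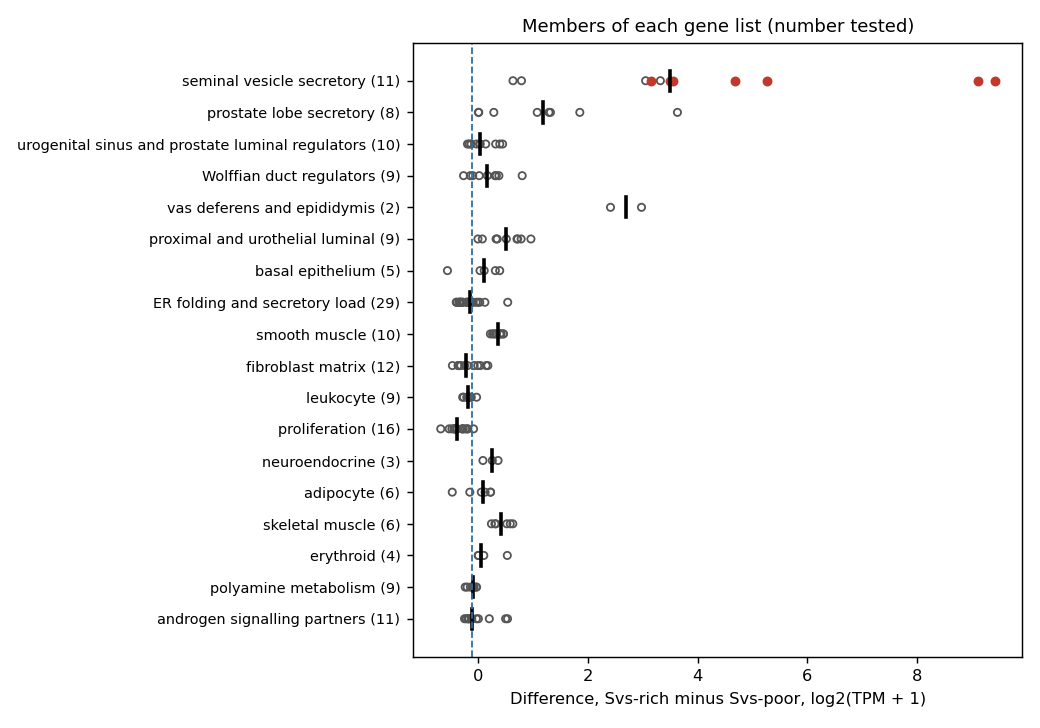
Difference in log2(TPM + 1) between Svs-rich and Svs-poor libraries for each member of 18 gene lists (points, filled where called), with the median of each list (black bar) and of all genes (dashed line, -0.11). Filled points occur in the seminal vesicle list alone.

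Lists of other tissues gave the range of what else the samples held. Smooth muscle genes had a median difference of 0.36, with summed levels of 319.57 to 2959.35 TPM in Svs-rich and 134.28 to 2811.36 TPM in Svs-poor libraries, and Acta2 differed by 0.29 ± 0.24. Without W1154 and W1118 that median was 0.04. Skeletal muscle had a median of 0.42 with summed levels of 39.86 to 1844.38 TPM and 0.7 to 2550.91 TPM. Proliferation genes had a median of -0.39 over 16 members, all of them below 0, where the median over all genes was itself -0.11. Without W1154 and W1118 the proliferation median was -0.23, against -0.14 over all genes. The sum of the proliferation genes was 28.32 to 532.06 TPM on the rich and 41.08 to 1277.43 TPM on the poor side. With proliferation and smooth muscle indices in the fit, 31 genes were called higher, of which 28 were among the 30. In bulk tissue, fewer cells of a type and less RNA per cell cannot be told apart.

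Of the remaining lists, urothelial and proximal luminal genes had a median of 0.51 over 9 members (Upk1b 0.33 ± 0.36, Krt4 0.35 ± 0.46), vas deferens and epididymis genes of 2.70 over 2, basal epithelium of 0.11 over 5 and neuroendocrine genes of 0.26 over 3. Endoplasmic reticulum folding genes, which serve protein secretion, had a median of -0.16 over 29 members, close to that of all genes, with Hspa5 at -0.35 ± 0.28 and Pdia6 at 0.03 ± 0.27. Fibroblast matrix genes had a median of -0.22, leukocyte genes of -0.19, polyamine enzymes of -0.10, androgen signalling partners of -0.12, adipocyte genes of 0.09 and erythroid genes of 0.05. In the lists from basal epithelium onward, the 2 most abundant members differed by -0.47 (Col3a1) to 0.63 (Acta1). The lowest adjusted p within the 17 lists was 0.102, for Upk2 of the urothelium.

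The 19 intermediate libraries, which the choice of members did not use, give the same measures in other mice. With the slope on log2 of the Svs4 and Svs5 sum, 2 of 12429 genes rose (0.0161%) and 0 fell (0%) in the limma fit, against 233 and 23 at an unadjusted p under 0.05. The 2 genes were Svs2, with a slope of 1.81 ± 0.25 (SE), and Pate4, with 1.65 ± 0.22, in log2 units per doubling of the sum. Both are in the seminal vesicle list, whose members go with Svs4 and Svs5, so these slopes are a description. Svs2 ran from 1.49 to 957.36 TPM and Pate4 from 1.66 to 503.67 TPM there. Of the 30 called genes 25 could be tested in these libraries, 20 had a positive slope and 7 had one with an unadjusted p under 0.05. Over all genes the median slope was 0.001, and 1.87% had a positive slope with an unadjusted p under 0.05. The genes tested include Svs2, Pate4, Svs6, Spinkl, Svs3a and Svs1, which go with the sum as members of the seminal vesicle list, so these counts are a description.

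In the intermediate libraries the medians of Svs6 and Svs1 differed in the same direction, at low levels and with overlap, described with no test. No intermediate library had Svs2 between 17.86 and 91.24 TPM, and the cuts used here were placed in this gap. In 9 of them Svs2 was under 20 TPM and the ratio of Svs5 to Svs4 between 0.59 and 1.42. In these 9 libraries Svs6 had a median of 10.57 TPM (0.94 to 28.88) and Svs1 of 1.64 TPM (0.13 to 5.14). In the other 10 Svs2 was over 90 TPM and the ratio ran from 1.64 to 27.4. There Svs6 had a median of 1.545 TPM (0.17 to 283.89) and Svs1 of 0.185 TPM (0.03 to 36.89). Mouse W4209 stood apart among these 10, with Svs6 at 283.89 TPM and Svs1 at 36.89 TPM, and Svs6 was 11.37 TPM in W4511.

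In the 42 libraries with Chga of 1 TPM or more, 3816 of 15082 genes rose (25.3%) and 5142 fell (34.1%) with the sum of Svs4 and Svs5. With a background that high, the 23 of 26 called genes that rose there say little about these genes. The prostate secretory gene Tgm4 moved along with the sum in these libraries, with a slope of 0.86 ± 0.08 (limma adjusted p = 2.69e-11), and its part in the result was not tested. A sum of at least 1000 TPM was present in 4 of the 42 and a sum under 50 TPM in 35.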

How the data were processed

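Total RNA of mouse prostate was depleted of ribosomal RNA and sequenced to a stated minimum of 43000000 pairs of 126-base reads per library. After trimming, the authors used Bowtie2 2.2.5 to align reads to a transcriptome of C57BL/6 and WSB alleles and RSEM 1.2.20 to quantify genes. CASAVA 1.8.2 is also listed in the submitters' processing notes. The deposited values are TPM for 45699 genes. TPM keeps no depth, so no count model or counting interval was used, and abundant transcripts lower the TPM of the others. GENCODE M21 (GRCm38) named 45136 of the genes.

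The 54 libraries were selected on Svs4, Svs5 and Chga, and the members and gene lists were chosen with earlier results of these data known. Autosomal genes (chromosomes 1 to 19) with a mean of at least 1 TPM over the libraries compared were fitted with limma 3.58.1 (R 4.3.3, moderated variances with an intensity trend) on log2(TPM + 1), and p-values were adjusted over all genes tested by the Benjamini-Hochberg method. A fold change on this scale understates the change of low genes. Svs4, Svs5 and Chga were left out of the fits. A gene was called at an adjusted p under 0.05 and, between groups, a 2-fold difference. Named genes are the 15 called protein-coding genes with the largest difference in each direction in no list, and of each list the called members, up to 4, or with none the 2 most abundant. Alternatives were another pseudocount, filters, scalings, thresholds, covariates, a fit without trend and leaving out libraries. In a simulation of the comparison of Svs-rich with Svs-poor libraries over 13127 genes, 99 of 100 genes changed by 2 log2 units were called. Of 100 genes changed by 1 log2 unit, which is the threshold of the call itself, 54 were called, and 93 were recovered without the 2-fold threshold. Promoter windows are RefSeq's. Sex-linked genes were not analysed here.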

Additional observations from a re-analysis of the deposited data

How the results depend on the processing

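The precision of low values from counting is unknown, since TPM keeps no depth, and the dissected lobe and the genotype of each mouse were not used here. No paired analysis was possible because all libraries belong to 1 labelled group and their numbers only name mice. Of the alternatives to the comparison of Svs-rich with Svs-poor libraries, 50 genes were called higher with a pseudocount of 0.1 TPM, 19 with a mean of at least 5 TPM, 62 after rescaling without Svs4, Svs5 and the top 20 genes, and 57 with Svs-rich from 5000 TPM (15 libraries). With Svs-poor under 10 TPM (10 libraries) 42 genes were higher, of which 15 were among the 30, and 1 was lower. The other alternatives gave between 24 and 39, and leaving out 1 library gave 23 (without W4065) to 33 (without W4491). No gene was lower in any run that left out 1 library (range 0 to 0). Under a Chga limit of 0.1 TPM only 2 Svs-rich and 3 Svs-poor libraries were left: 38 genes were higher, of which 5 were among the 30, 23 were lower, and Plau (-0.19), Cd52 (-0.12), Cwh43 (-0.77), Odam (-1.10), Ptgds (-0.74), Elf5 (-1.04), Shisa4 (-0.90) and Abhd11os (-0.69) changed direction without a call. The fewer samples are part of that setting, and the cause was not tested for the others. Besides Cd52 and Odam, calls lost in some runs without 1 library were those of Svs3a (kept in 18 of 54), Svs1 (18), Shisa4 (20), Ptgds (39) and Abhd11os (53, lost without W4065).

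Within the Svs-rich libraries, the slope on the sum was positive for 138 genes and negative for 51. These counts were 67 and 32 with a mean of at least 5 TPM, 693 and 321 with median-of-ratios scaling, 398 and 383 with the rescaled TPM, and the negative count was 335 with each slope in a fit of its own. Leaving out 1 library moved the positive count by less than 1.5 times, and it moved the negative count by more without W4165 (595), W4173 (99), W7822 (79), W4351 (33), W4350 (30), W4426 (28), W4421 (17) and W4125 (9). The slope on the ratio was positive for 27 genes with a pseudocount of 0.1 TPM, 9 with no filter and 39 in a fit of its own, where 11 were negative. Leaving out 1 library gave 8 to 39 positive and 5 to 7 negative slopes. In the libraries with Chga of 1 TPM or more, 2179 positive and 3345 negative slopes were left with a mean of at least 5 TPM. The intermediate counts of 2 and 0 were the same in all 5 alternatives run.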

Other observations

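Outside the comparison, 4 libraries with Chga between 1.21 and 3.56 TPM had high levels of Svs4 and Svs5 and can be read beside the Svs-rich libraries. Their ratio of Svs5 to Svs4 was 6.75 in mouse W4292, 9.25 in W5001, 12.4 in W4360 and 14.5 in W4492. Svs5 ran from 1268.66 TPM in W5001 to 33348.8 TPM in W4492, Svs2 from 2015.26 to 18141.2 TPM and Pate4 from 1184.58 to 12334.7 TPM in the same mice. Svs6 was between 0.15 and 67.25 TPM, Svs1 at most 2.98 TPM and Sva at most 1.06 TPM. Spinkl was 0.25 TPM in W5001 and 32.8 to 71.03 TPM in the other 3, above the highest value of the Svs-rich libraries with a high ratio (21.95 TPM). Svs6 in W4360 and W4492, Svs3a in W4292 and W4360, Svs1 in W4292, Sva in W4292 and W4492, and Ceacam10 in W4492 were also above the highest values of those libraries. Cyp4a12a was 6.82, 10.05, 29.36 and 44.16 TPM in these libraries, and Gm17689 was between 8.39 and 165.23 TPM. Npy was between 38.3 and 75.87 TPM, above the highest Svs-rich value of 19.21 TPM in each of them. These values are a description of 4 libraries, with no test.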
